A study of Mus musculus with 2 samples.

Results

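A set of 47 genes that the liver's hepatocytes use was followed in white adipose tissue of obese mice, 25 for proteins secreted into blood plasma and 22 for enzymes or transporters that stay in the cell. Apolipoproteins, serpins and cytochrome P450s were kept out of the set. The set was chosen from earlier results of the same arrays, so every difference given for it is a description, with no test. Of the 47 genes, 44 had a probe set that named them alone, out of 19938 genes measured that way. White fat came from an Oma1-deficient mouse (Oma1_KO) and from a control mouse (Oma1_WT), both 24 weeks old after 20 weeks of high-fat feeding, with 1 Affymetrix Mouse Gene 1.0 ST array for each. The labels give neither the fat depot, the strain, the sex nor the part of Oma1 that was disrupted, and do not say whether RNA of several animals was pooled. With 1 array per genotype there is no replicate check on any value, and precision is limited by there being so few arrays.

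Hepatocytes make most of the proteins of blood plasma, among them albumin, the fibrinogen chains, the clotting proteases and the carriers of hormones, haem and haemoglobin. They also hold the enzymes that turn ammonia into urea, break down amino acids and release glucose. A few of these genes are also known to be active in fat or in its resident cells. Haptoglobin, the orosomucoids and zinc-alpha-2-glycoprotein are made by fat cells, and arginase 1 by macrophages, while argininosuccinate synthase and lyase are active in many tissues. Transcription of the liver genes is known to depend on factors of the HNF1, HNF4, FOXA and C/EBP families, which bind close to the start of many of them.

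To show what precedes such genes, the 250 bases before the annotated start are printed for 5 members, from RefSeq on GRCm38.p6, 5′ to 3′ on the gene's own strand. Alb and Hpx are shown as brightly read carriers that were higher in Oma1_KO fat, Fgb for the fibrinogen cluster, Uox for the enzymes, and Orm2 as the member with the lowest difference. Capitals mark matches, on either strand, to the HNF1 motif GTTAAT, the C/EBP motif TTGCNNAA and the TATA box TATAAA.
Alb (chr5:90460620-90460869, plus strand): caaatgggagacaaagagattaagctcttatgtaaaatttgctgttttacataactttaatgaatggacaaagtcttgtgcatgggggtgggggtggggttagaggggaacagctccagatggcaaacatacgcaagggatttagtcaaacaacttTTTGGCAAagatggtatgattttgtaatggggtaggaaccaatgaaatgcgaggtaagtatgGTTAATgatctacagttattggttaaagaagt
Hpx (chr7:105600117-105600366, minus strand): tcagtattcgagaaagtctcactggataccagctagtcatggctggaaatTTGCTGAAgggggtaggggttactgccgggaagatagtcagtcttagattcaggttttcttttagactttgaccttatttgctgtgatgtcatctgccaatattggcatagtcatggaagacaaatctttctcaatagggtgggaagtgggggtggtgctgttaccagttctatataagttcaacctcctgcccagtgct
Fgb (chr3:83049864-83050113, minus strand): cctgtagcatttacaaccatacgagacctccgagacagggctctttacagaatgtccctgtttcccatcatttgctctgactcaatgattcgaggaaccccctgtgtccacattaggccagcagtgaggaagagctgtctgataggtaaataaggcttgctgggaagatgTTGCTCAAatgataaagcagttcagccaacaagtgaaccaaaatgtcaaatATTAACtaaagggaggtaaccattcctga
Uox (chr3:146596899-146597148, plus strand): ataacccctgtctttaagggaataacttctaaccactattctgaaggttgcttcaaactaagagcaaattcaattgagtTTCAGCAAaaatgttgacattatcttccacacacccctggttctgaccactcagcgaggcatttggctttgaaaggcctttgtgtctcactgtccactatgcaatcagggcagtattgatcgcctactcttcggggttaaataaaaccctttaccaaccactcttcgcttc
Orm2 (chr4:63362199-63362448, plus strand): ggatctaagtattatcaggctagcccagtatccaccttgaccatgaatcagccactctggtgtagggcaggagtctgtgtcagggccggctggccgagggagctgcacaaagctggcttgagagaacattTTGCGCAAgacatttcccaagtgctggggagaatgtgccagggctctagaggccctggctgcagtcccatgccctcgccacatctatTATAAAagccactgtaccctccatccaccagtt
In Alb the HNF1 match starts 32 bases before the start and the C/EBP match 94 bases before it. Fgb has both as well, with the HNF1 match beginning 29 bases and the C/EBP match 80 bases before the start. Hpx and Uox hold a C/EBP match alone, and Orm2 a C/EBP match and a TATA box.

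Promoters were listed for 36 of the 47 genes, as 37 entries. The C/EBP motif was found in 14 of the 37 (37.8%), against 9.56% of all 32851 promoters of this length. The HNF1 motif was found in 8 (21.6%), against 6.43% of all promoters. The letters TATAAA were found on either strand in 8 (21.6%), against 12.4%. Of these 8, G6pc and Orm2 alone held them on the gene's own strand close to the start, from 29 and 33 bases before it. The FOXA motif TGTTTAC and the HNF4 motif CAAAGTCC were found in 0 of the 37, against 3.17% and 1.2% of all promoters. No 2 matches of different motifs overlapped in these promoters. Secreted members held the HNF1 motif in 6 of 19 entries and intracellular members in 2 of 18. Members at least 1.5-fold higher in Oma1_KO fat held it in 2 of 14 entries, and those within 1.5-fold in 4 of 19. The C/EBP motif was in 7 of those 14 and in 6 of those 19. A match is a run of letters and does not show that a factor binds there.

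**Figure D1:**
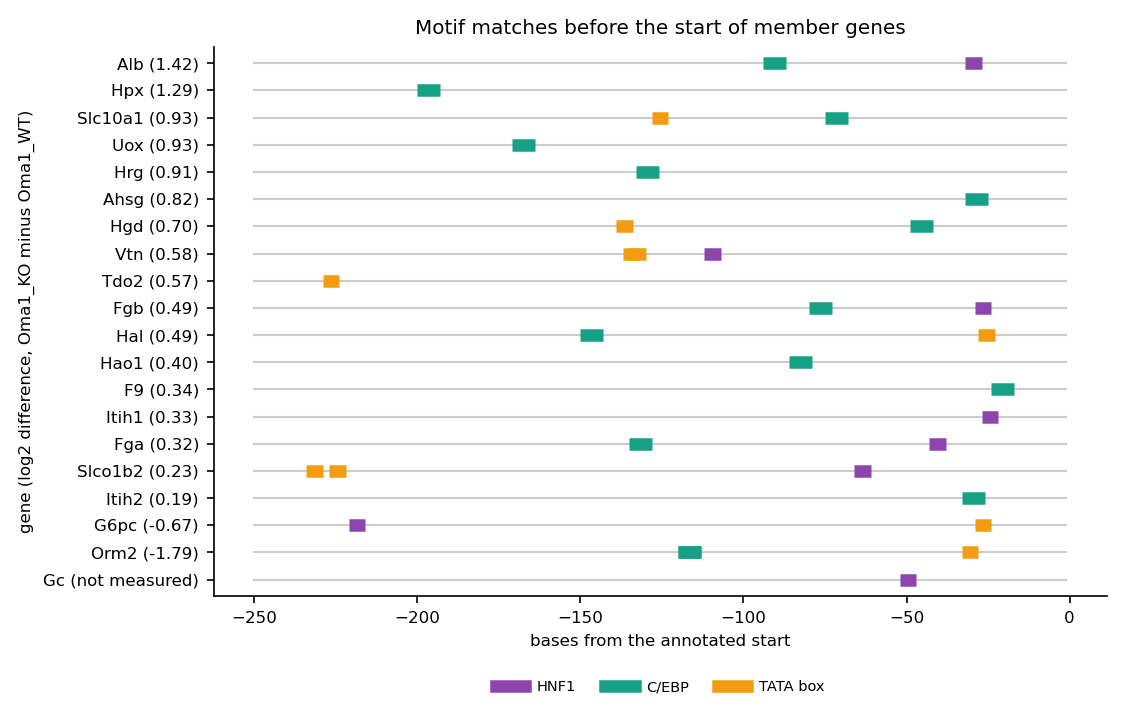
Matches to 3 motifs in the 250 bases before the annotated start of member genes that hold any (x axis, bases from the start), ordered by the log2 difference, Oma1_KO minus Oma1_WT, given beside each name. HNF1 matches lie within 52 bases of the start in Alb, Fga, Fgb, Itih1 and Gc, the last of which was not measured.

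The deposited values are intensities on a linear scale in whole numbers, from 8 to 21365 in Oma1_KO and from 8 to 21216 in Oma1_WT, and both arrays had a median of 83 over 35512 probe sets. A signal under that median is called dim here, since no detection call was used. Differences are log2(intensity + 1) in Oma1_KO minus the same in Oma1_WT, a scale that understates the change of dim genes. The only spread that could be estimated is that between probe sets of 1 gene, an SD of 0.17 on the log2 scale over 545 genes with a pair of probe sets, and it says nothing of the spread between animals. Oma1 itself, the mitochondrial protease that was targeted, read 155 in Oma1_KO and 187 in Oma1_WT, a difference of -0.27. Its 1 probe set may lie outside the disrupted part, so it does not check the genotype. The median difference over all 19938 genes was 0. Over the 8555 genes dim in Oma1_WT it was 0.08, with 5336 higher in Oma1_KO and 2307 lower. Between the median and the upper quartile of Oma1_WT it was -0.06, and at or above that quartile -0.07.

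Most of the liver genes read higher in Oma1_KO fat. Of the 44 measured, 34 were higher and 10 lower, beside 9356 higher and 9543 lower of all 19938 genes. The median difference of the 44 was 0.38. At least 1.5-fold higher were 16 (36.4%), beside 1.15% of all genes, and at least 1.5-fold lower were 2, Orm2 and G6pc, beside 1.4% of all genes. At least 2-fold higher were 5 (all genes, 0.206%), namely Mup3, Alb, Kng1, Hpx and Ambp, and 1 was at least 2-fold lower (all genes, 0.201%), Orm2. These shares restate the contrast that chose the genes and carry no further weight. Just inside the 1.5-fold limit lay Vtn, at exactly 1.5-fold, and Itih4, at 1.53-fold, and just outside it Tdo2, at 1.49-fold. Of the 44, 9 were dim on both arrays, and 32 passed a filter on the mean of both arrays. In whole tissue, more cells of a type and more RNA per cell cannot be told apart.

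**Figure D2:**
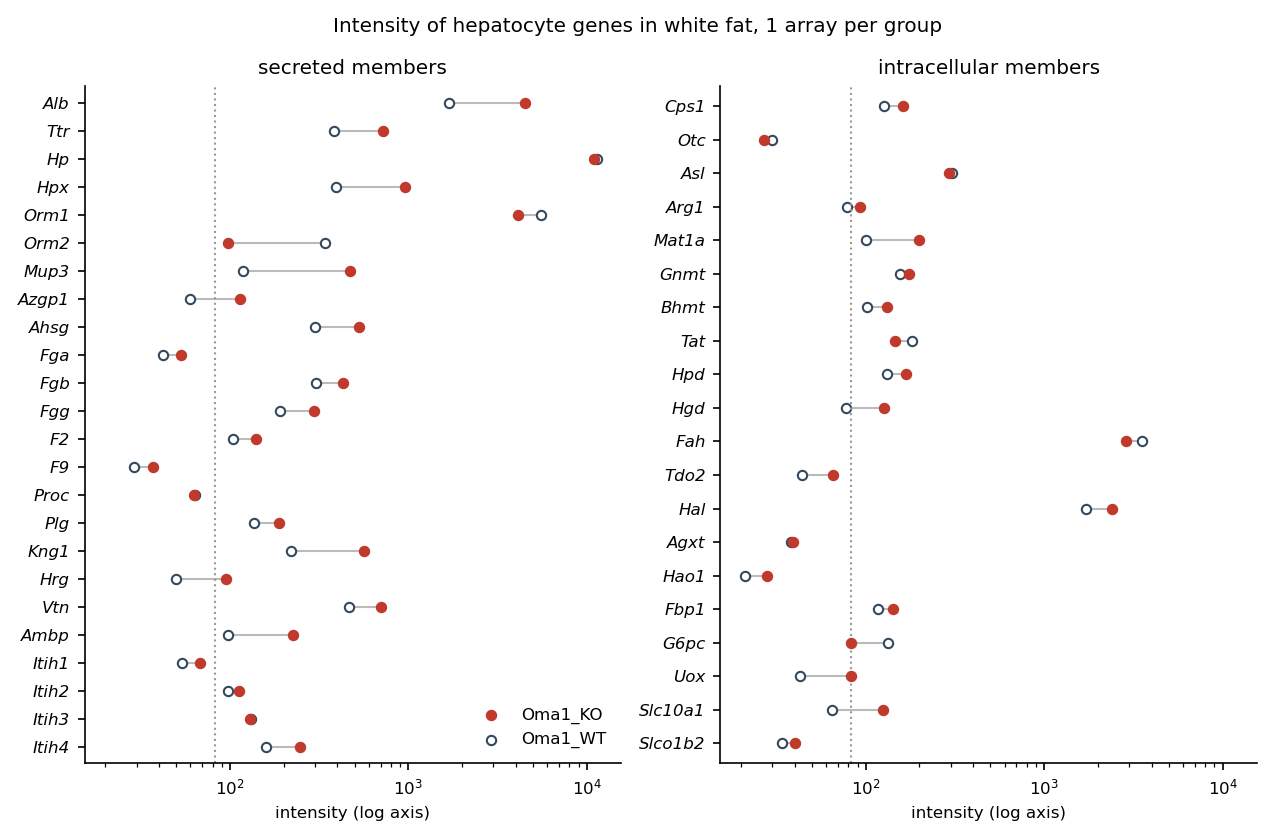
Intensity of each measured member (x axis, log scale) in the Oma1_KO array (filled) and the Oma1_WT array (open), secreted members left and intracellular members right; the dotted line is the median intensity of 83. Alb read 4523 in Oma1_KO and 1692 in Oma1_WT, while Hp, Orm1 and Fah were bright on both arrays and no higher in Oma1_KO.

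Among the carriers of plasma, 6 of 9 measured reached 1.5-fold in the direction of Oma1_KO fat and 1, Orm2, in that of Oma1_WT, beside 1.15% and 1.4% of all genes. Alb, which encodes albumin, the main plasma protein, read 4523 in Oma1_KO and 1692 in Oma1_WT, a difference of 1.42 or 2.67-fold. Its increase of 2831 intensity units is that of 1 probe set and cannot be set against the units of another. Hpx, the haem-binding hemopexin, read 963 in Oma1_KO and 394 in Oma1_WT (1.29). Ttr, which encodes the thyroid hormone carrier transthyretin, read 717 in Oma1_KO and 381 in Oma1_WT (0.91). Ahsg, which encodes fetuin-A, an inhibitor of mineral deposition, read 531 in Oma1_KO and 300 in Oma1_WT (0.82). All 4 were above the median intensity on both arrays.

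Mup3, a major urinary protein that carries small odorants, had the highest difference of the set. It read 473 in Oma1_KO and 119 in Oma1_WT, a difference of 1.98 or 3.95-fold. Major urinary protein genes are known as a family of similar copies, so its probe set may take signal from several of them. The probe sets of Mup5, at 28 in Oma1_KO and 21 in Oma1_WT (0.40), and of Mup21, at 23 in Oma1_KO and 22 in Oma1_WT (0.06), were dim on both arrays. Azgp1, which encodes zinc-alpha-2-glycoprotein, read 114 in Oma1_KO and 60 in Oma1_WT (0.91), and was dim in Oma1_WT.

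Of the plasma proteins also made by fat cells, Azgp1 was thus higher in Oma1_KO, while haptoglobin and the orosomucoids were not. Hp, which encodes the haemoglobin-binding haptoglobin, read 10969 in Oma1_KO and 11382 in Oma1_WT, a difference of -0.05 that is smaller than the SD between probe sets. Orm1, an acute-phase orosomucoid, read 4140 in Oma1_KO and 5535 in Oma1_WT (-0.42). Orm2, its neighbour and close relative, read 98 in Oma1_KO and 342 in Oma1_WT, a difference of -1.79, or 3.46-fold lower in Oma1_KO. Orm3, the gene between them, read 35 in Oma1_KO and 76 in Oma1_WT (-1.10), dim on both arrays. The orosomucoid genes resemble each other, so their probe sets may share signal.

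Of the 10 genes of clotting and fibrinolysis, 9 read higher in Oma1_KO fat and 4 of them by at least 1.5-fold, beside 9356 and 229 (1.15%) of all 19938 genes. Kng1, which encodes kininogen, the source of bradykinin, read 568 in Oma1_KO and 221 in Oma1_WT (1.36, or 2.56-fold). Hrg, the histidine-rich glycoprotein, read 95 in Oma1_KO and 50 in Oma1_WT (0.91), dim in the control array. Vtn, which encodes the adhesive plasma protein vitronectin, read 701 in Oma1_KO and 467 in Oma1_WT (0.58).

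The fibrinogen chains, which form the clot, lie side by side on the chromosome. Fgg read 297 in Oma1_KO and 192 in Oma1_WT (0.63), and Fgb read 428 in Oma1_KO and 304 in Oma1_WT (0.49). Fga was dim on both arrays, its 2 probe sets reading 61 and 46 in Oma1_KO and 46 and 39 in Oma1_WT. All 3 genes were therefore higher by less than 2-fold, and only Fgg passed 1.5-fold. Plg, the precursor of plasmin, which dissolves clots, read 189 in Oma1_KO and 136 in Oma1_WT (0.47). F2, which encodes prothrombin, read 140 in Oma1_KO and 104 in Oma1_WT (0.43). F9, clotting factor IX, at 37 in Oma1_KO and 29 in Oma1_WT, and Proc, the anticoagulant protein C, at 63 in Oma1_KO and 64 in Oma1_WT, were dim on both arrays and are not shown to differ.

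The inter-alpha-trypsin inhibitor is a protease inhibitor built from bikunin and heavy chains, and it binds hyaluronan in the matrix. Bikunin is cut from the Ambp product, and the heavy chains come from genes such as Itih1 and Itih2. Ambp read 225 in Oma1_KO and 97 in Oma1_WT (1.21, or 2.31-fold). Itih4, a relative of the heavy chain genes, read 246 in Oma1_KO and 160 in Oma1_WT (0.62). Itih2, at 112 in Oma1_KO and 98 in Oma1_WT (0.19), and Itih3, at 129 in Oma1_KO and 131 in Oma1_WT (-0.02), were above the median on both arrays and close to equal. Itih1 was dim on both, at 68 in Oma1_KO and 54 in Oma1_WT. Of the 5 genes, Ambp and Itih4 alone passed 1.5-fold, both upward in Oma1_KO, beside 1.15% of all genes.

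Neighbouring genes did not read alike in every cluster. Itih4, Itih3 and Itih1 follow one another on chromosome 14, with differences of 0.62, -0.02 and 0.33. Ahsg, Hrg and Kng1 lie within a few genes of each other on chromosome 16, with differences of 0.82, 0.91 and 1.36. Ambp lies near the orosomucoids on chromosome 4, with 2 genes between it and Orm1, and was higher at 1.21 where Orm1 and Orm2 were lower at -0.42 and -1.79.

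**Figure D3:**
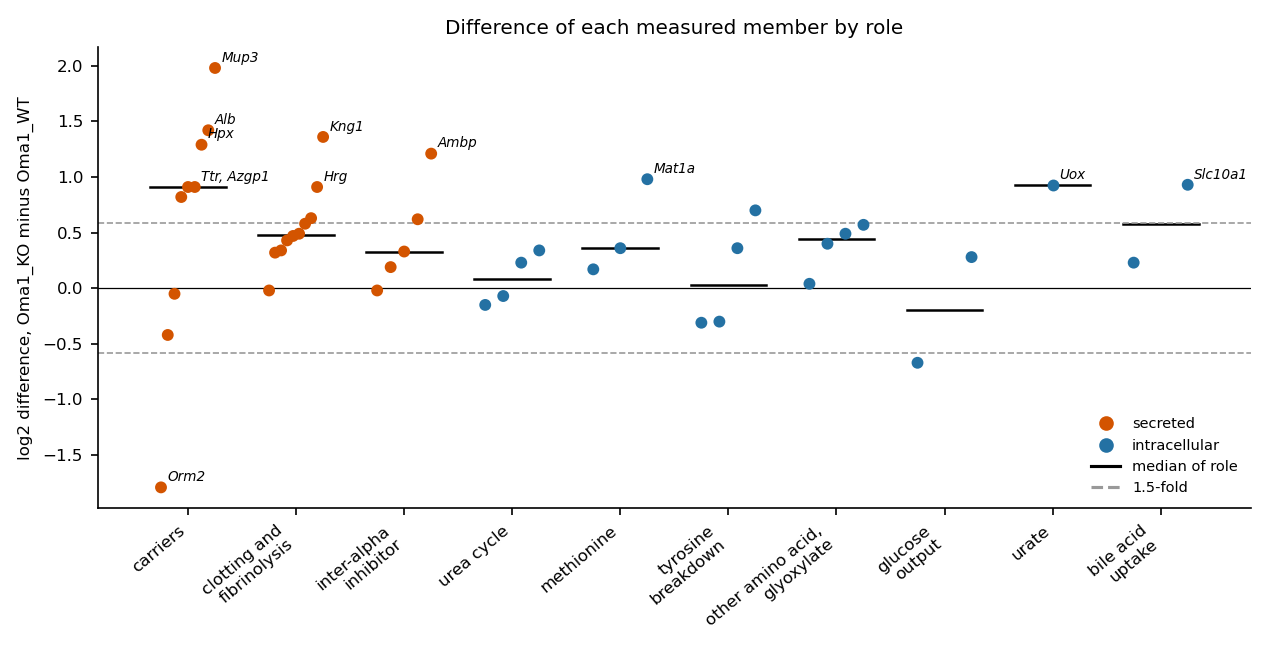
Log2 difference, Oma1_KO minus Oma1_WT, of each measured member (points) by role, with the median of each role (bar) and the 1.5-fold limits (dashed). Carriers span the widest range, with Mup3 at 1.98 and Orm2 at -1.79, and the 4 urea cycle genes lie between -0.15 and 0.34.

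Enzymes of the urea cycle, which disposes of ammonia, differed little. Cps1, which encodes the mitochondrial enzyme that starts the cycle, read 161 in Oma1_KO and 127 in Oma1_WT (0.34). Asl, argininosuccinate lyase, read 292 in Oma1_KO and 306 in Oma1_WT (-0.07). Arg1, the arginase that releases urea, read 93 in Oma1_KO and 79 in Oma1_WT (0.23), while Otc, ornithine transcarbamylase, was dim at 27 in Oma1_KO and 30 in Oma1_WT. None of these 4 reached 1.5-fold in either direction, beside 1.15% of all genes higher and 1.4% lower by as much. Ass1, argininosuccinate synthase, was probed only together with Gm5424, by 2 probe sets that read 261 and 224 in Oma1_KO and 336 and 306 in Oma1_WT, so it was not counted.

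Among the enzymes of methionine and methyl groups, Mat1a, the liver form of the enzyme that makes S-adenosylmethionine, read 200 in Oma1_KO and 101 in Oma1_WT (0.98, or 1.97-fold). It had the highest difference among the intracellular members. Gnmt, which uses up that methyl donor, read 176 in Oma1_KO and 156 in Oma1_WT (0.17). Bhmt, which remakes methionine from homocysteine, had 3 probe sets that disagreed, at 224, 148 and 68 in Oma1_KO and 129, 109 and 75 in Oma1_WT. Their differences were 0.79, 0.44 and -0.14, so the mean of 0.36 is uncertain.

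The 4 enzymes of tyrosine breakdown split. Hgd, homogentisate dioxygenase, read 127 in Oma1_KO and 78 in Oma1_WT (0.70), and Hpd, the enzyme before it, read 169 in Oma1_KO and 131 in Oma1_WT (0.36). Tat, the aminotransferase that opens the pathway, read 146 in Oma1_KO and 181 in Oma1_WT (-0.31). Fah, the hydrolase that closes it, was bright and read 2864 in Oma1_KO and 3517 in Oma1_WT (-0.30).

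Hal, histidine ammonia-lyase, which is also known from skin, was the other bright enzyme, at 2409 in Oma1_KO and 1711 in Oma1_WT (0.49). Tdo2, which starts tryptophan breakdown, was dim at 66 in Oma1_KO and 44 in Oma1_WT (0.57). Hao1 and Agxt, a pair of peroxisomal glyoxylate enzymes, were dim as well, at 28 and 39 in Oma1_KO and 21 and 38 in Oma1_WT. Sds, serine dehydratase, and Gc, the vitamin D carrier, had no probe set named for them in the table used and were not analysed here.

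Of the enzymes of glucose output, Fbp1, fructose-1,6-bisphosphatase, read 142 in Oma1_KO and 117 in Oma1_WT (0.28). G6pc, glucose-6-phosphatase, went the other way, at 83 in Oma1_KO and 133 in Oma1_WT, a difference of -0.67. Uox, urate oxidase, read 83 in Oma1_KO and 43 in Oma1_WT (0.93). The bile acid transporter Slc10a1 read 125 in Oma1_KO and 65 in Oma1_WT (0.93), and the organic anion transporter Slco1b2 was dim at 40 in Oma1_KO and 34 in Oma1_WT. Of the 16 members at least 1.5-fold higher, 5 were dim in Oma1_WT (Uox, Slc10a1, Hgd, Hrg and Azgp1), so their folds are less certain.

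Set side by side, secreted members had a median difference of 0.54 and intracellular members one of 0.31, so the medians were 0.23 apart. At least 1.5-fold higher were 12 of 24 secreted members (50%) and 4 of 20 intracellular members (20%), beside 1.15% of all genes. The 5 members at least 2-fold higher were all secreted. The ranges of both classes overlapped, from -1.79 to 1.98 for secreted and from -0.67 to 0.98 for intracellular members, and 1 array per genotype allows no test of the gap. In intensity units, the 19 secreted members that were higher in Oma1_KO gained 5579.6 in sum and the 5 that were lower summed to -2055, a net of 3524.6. The 15 intracellular members that were higher gained 1142.4 and the 5 that were lower summed to -755, a net of 387.4. Most of each sum came from 1 bright gene. Alb gave 2831 of the secreted gain and Orm1 -1395 of the secreted loss. Hal gave 698 of the intracellular gain and Fah -653 of the intracellular loss. Probe sets differ in brightness for the same amount of RNA, so these sums say how the signal was spread and not how much RNA there was.

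The classes also differed in brightness. In the control array 18 of 24 secreted members and 11 of 20 intracellular members were at or above the median intensity. Among members between the median and the upper quartile of 335 in Oma1_WT, 6 of 11 secreted and 1 of 9 intracellular were at least 1.5-fold higher, beside 1.41% of all genes in that range. Among those dim in Oma1_WT, 2 of 6 secreted and 3 of 9 intracellular were, beside 1.32% of all genes in that range. At or above the upper quartile, 4 of 7 secreted and 0 of 2 intracellular members were, beside 0.641%. Above the median intensity the share was larger among the secreted members, and among the dim ones it was 33.3% in each class. These counts are small and were not tested.

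**Figure D4:**
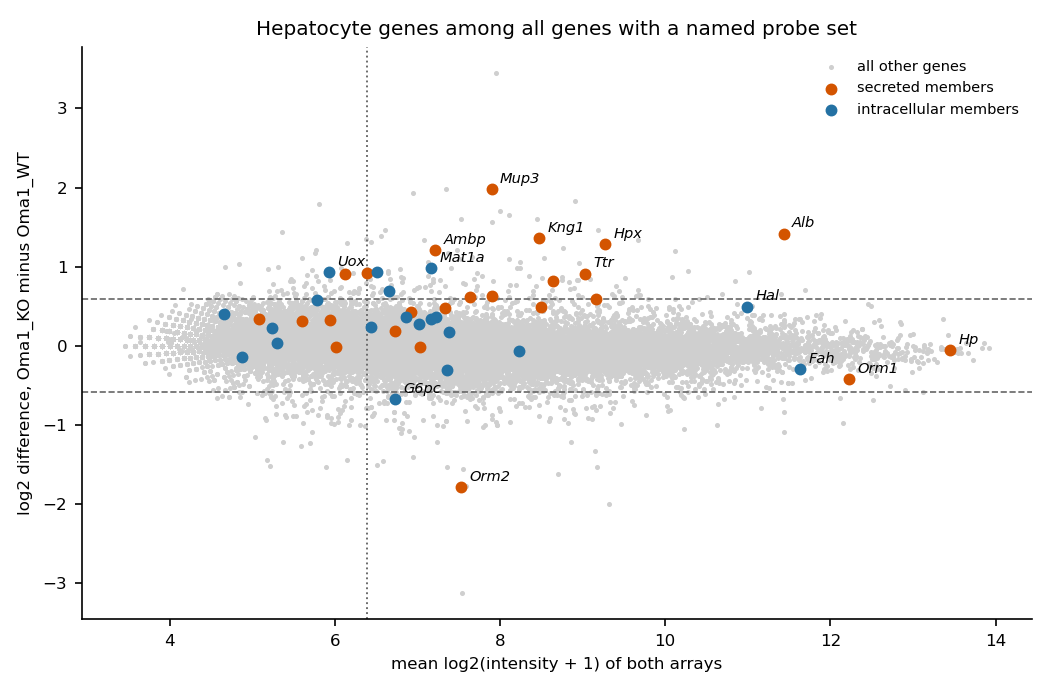
Log2 difference, Oma1_KO minus Oma1_WT, against mean log2(intensity + 1) for all 19938 genes (grey), secreted members (orange) and intracellular members (blue); dashed lines mark 1.5-fold and the dotted line the median intensity. Mup3, Alb, Kng1, Hpx and Ambp are the 5 members at least 2-fold higher, among 41 of all 19938 genes. Hp, Orm1 and Fah lie within the grey cloud at the bright end.

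The genes named at the outset as also active in fat cells, in macrophages or in many tissues were counted apart. Of the 6 measured (Hp, Orm1, Orm2, Azgp1, Asl and Arg1), 2 were higher and 4 lower, with a median of -0.06. The other 38 members had a median of 0.45, with 32 higher and 6 lower, beside 9356 and 9543 of all 19938 genes. At least 1.5-fold higher were 15 of the 38, beside 1.15% of all genes. G6pc alone was lower by as much, beside 1.4% of all genes. Without the genes counted apart the medians were 0.60 for 20 secreted members and 0.35 for 18 intracellular members. Those genes were listed with earlier results of these data known, and the list is not complete. Hal, also known from skin, stayed among the 38.

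Other products of hepatocytes gave mixed values, to be read beside the 1.15% of all genes at least 1.5-fold higher and the 1.4% lower by as much. Of 13 apolipoproteins, which carry lipids in plasma, 7 were at least 1.5-fold higher in Oma1_KO fat, with a median of 0.92. The highest, Apoa1, read 904 in Oma1_KO and 253 in Oma1_WT (1.83), and 2 of the 13 were lower, neither by 1.5-fold. Apob, the structural protein of the very low-density lipoproteins, read 246 in Oma1_KO and 109 in Oma1_WT (1.17). Of 12 liver serpins 5 were at least 1.5-fold higher, with a median of 0.53. Serpina1c, of the alpha-1-antitrypsin family, whose copies may share signal, read 414 in Oma1_KO and 209 in Oma1_WT (0.98). Of 20 liver P450s 7 were at least 1.5-fold higher and 1 was lower by as much, with a median of 0.35. The highest, Cyp2f2, read 410 in Oma1_KO and 138 in Oma1_WT (1.56). The lower one, Cyp2e1, read 3237 in Oma1_KO and 6384 in Oma1_WT (-0.98). A longer list of other secreted liver proteins had a median of 0.11, with 19 of 35 dim on both arrays. It held 5 genes at least 1.5-fold higher and 3 lower by as much. Its highest member, the protease inhibitor Pzp, read 402 in Oma1_KO and 187 in Oma1_WT (1.10), and Hamp, which encodes the iron hormone hepcidin, read 34 in Oma1_KO and 100 in Oma1_WT (-1.53). C6, a complement factor, read 828 in Oma1_KO and 1718 in Oma1_WT (-1.05). Other hepatocyte enzymes had a median of 0.13, with 6 of 42 at least 1.5-fold higher and 0 lower, and 27 of the 42 were dim on both arrays. Ces3a, a carboxylesterase, read 270 in Oma1_KO and 116 in Oma1_WT (1.21).

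The members of the acute phase, the liver's response to inflammation, did not read as a block. Over 22 acute-phase genes, 3 passed 1.5-fold upward and 3 downward in Oma1_KO, beside 1.15% and 1.4% of all genes. Their median was -0.04. Hpx, Fgg and Itih4 were the higher ones. Orm2, Hamp and Saa2, a serum amyloid gene at 84 in Oma1_KO and 152 in Oma1_WT (-0.85), were the lower ones. The 22 include Hp, Orm1 and Orm2, which fat cells also make, and some genes of signalling. In the control array 18 of the 22 were at or above the median intensity. Their median difference is thus not one of liver-made plasma proteins alone.

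Markers of other cells were read beside these genes. Of all 19938 genes, 9356 were higher in Oma1_KO and 9543 lower. By at least 1.5-fold, 1.15% were higher and 1.4% lower. Of 15 hepatocyte transcription factors 0 reached 1.5-fold in either direction, with a median of -0.03, and 11 were dim on both arrays. Hnf4a, which defines hepatocytes, read 94 in Oma1_KO and 107 in Oma1_WT (-0.19), Foxa2 read 87 in Oma1_KO and 96 in Oma1_WT (-0.14), and Cebpa, which fat cells also use, read 2132 in Oma1_KO and 2019 in Oma1_WT (0.08). Of 10 markers of Kupffer, sinusoidal and stellate cells of the liver 7 were higher, 0 by 1.5-fold, with summed intensities of 1252.8 in Oma1_KO and 1020.3 in Oma1_WT. Vsig4, a receptor of Kupffer cells and of other resident macrophages, had the largest difference of them, at 569 in Oma1_KO and 384 in Oma1_WT (0.57). Stab2, a receptor of sinusoidal endothelium, read 101 in Oma1_KO and 84 in Oma1_WT (0.26), and Clec4f, a lectin of Kupffer cells, was dim at 63 in Oma1_KO and 72 in Oma1_WT (-0.19). Of 6 bile duct markers all were lower, 4 by at least 1.5-fold beside 1.4% of all genes, with sums of 451 in Oma1_KO and 667 in Oma1_WT. Of the 6, 3 were dim on both arrays, and Krt19 and Sox9 are not particular to bile ducts. Their part in the differences of the liver genes was not tested.

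Tissues that share some of these genes with the liver showed small values. Counts at 1.5-fold are to be read beside 1.15% of all genes higher and 1.4% lower by as much. Counts of any size are to be read beside 9356 of all 19938 genes higher and 9543 lower. Of the 8555 genes dim in Oma1_WT, 5336 were higher and 2307 lower. Of 9 kidney markers, 8 dim on both arrays, 8 were higher in Oma1_KO and 0 reached 1.5-fold. Their sums were 479.5 in Oma1_KO and 425 in Oma1_WT. Of 10 markers of small intestine, 8 dim on both, 8 were higher, 1 of them by at least 1.5-fold. Their sums of 2943 in Oma1_KO and 2568 in Oma1_WT were mostly Anpep, at 2573 in Oma1_KO and 2228 in Oma1_WT. Of 8 pancreas markers, 6 dim on both, 6 were higher and 0 reached 1.5-fold, with sums of 539 in Oma1_KO and 502 in Oma1_WT. As a check of the tissue label, all 14 adipocyte markers measured were above the median on both arrays. Of these 13 were lower in Oma1_KO, with a median of -0.17 and sums of 74607 in Oma1_KO and 84270 in Oma1_WT. Macrophage markers were higher in 10 of 12, with sums of 39475 in Oma1_KO and 33633 in Oma1_WT, and the red cell markers Alas2 and Slc4a1 differed by 0.36 and 0.44. The part of fat cells, macrophages or blood in the differences of the liver genes was not tested.

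**Figure D5:**
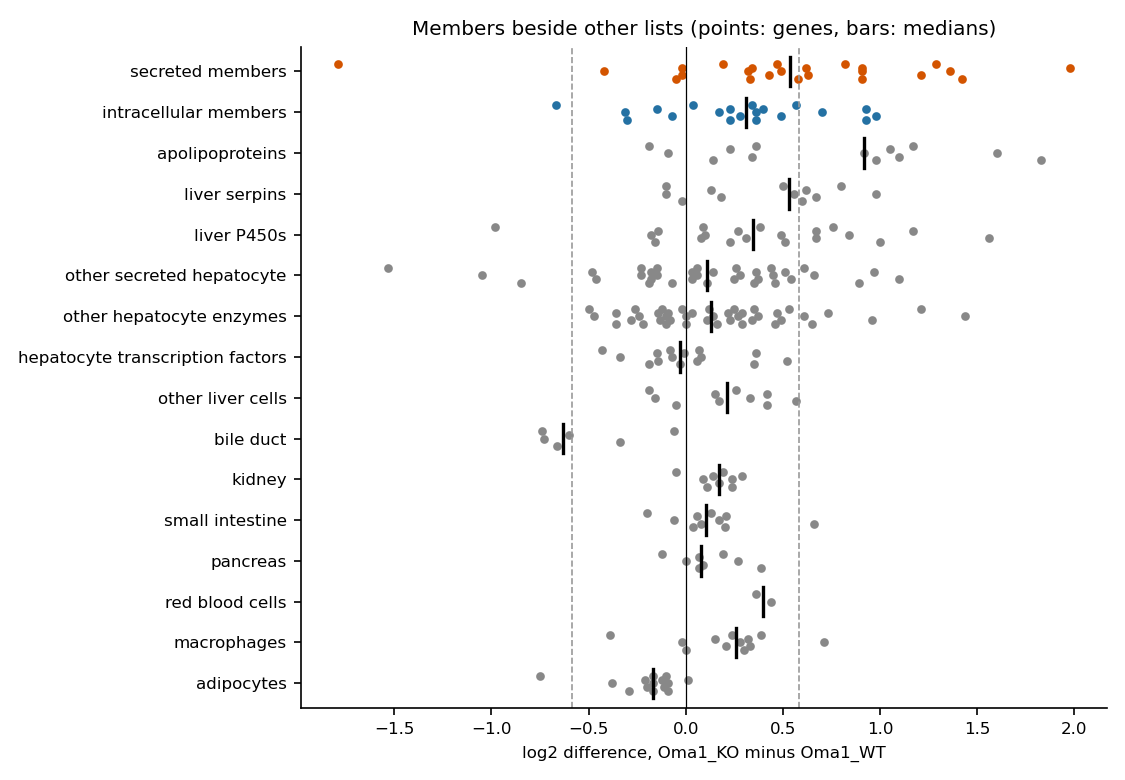
Log2 difference, Oma1_KO minus Oma1_WT, of each measured gene (points) in the secreted and intracellular members and in lists of other liver products and cell markers, with medians (bars) and 1.5-fold limits (dashed). Apolipoproteins (median 0.92), secreted members (0.54) and liver serpins (0.53) lie to the right, hepatocyte transcription factors (-0.03) near 0, and bile duct markers to the left.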

How the data were processed

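Per the labels, white fat RNA was prepared with Trizol, given a biotin label and read on Affymetrix Mouse Gene 1.0 ST arrays. The intensity of each probe set was deposited as a whole number on a linear scale. The sources used here do not give the background correction, probe set summary, scaling or software. Names of probe sets came from GEO's platform annotation: 21789 had a single symbol, 1621 several and 12102 none, and the first kind alone was used. All 47 members matched the RefSeq table of GRCm38.p6. No gene coordinates are given for the array values, since no build is stated for them.

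Values were put on a log2 scale after adding 1, probe sets of 1 gene were averaged, and Oma1_KO minus Oma1_WT was taken with no further scaling. With 1 array per group no test was made. Sizes of 1.5-fold and 2-fold were counted over all members without a filter on low values, since a filter over both arrays keeps dim genes through the array where they are high. The members and lists were chosen with earlier results of these data known. Every member and Oma1 are named. Other genes printed come from the up to 4 per list that differed most in absolute terms among those at or above the median intensity in at least 1 array, and not all of these are printed. Orm3, Mup5, Mup21 and Clec4f were added after their values were seen. The 7 alternatives were quantile normalisation, loess, median centring, a pseudocount of 16, the brightest probe set, and 2 intensity filters. The counting was tested on simulated data. Motifs were searched in 250 bases before each RefSeq start. Python 3.11.15, numpy 2.4.6, pandas 2.3.3, statsmodels 0.14.6 and matplotlib 3.10.9 were used.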

Additional observations from a re-analysis of the deposited data

Results flagged for a closer look

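Outside the genes counted above, 7 probe sets name several major urinary protein genes or pseudogenes at once. All 7 read higher in Oma1_KO than in Oma1_WT fat, with differences from 0.58 to 1.44. At least 2-fold higher were 4, beside 0.206% of all genes. Of the 7, 3 were dim on both arrays, at 32, 53 and 26 in Oma1_KO and 16, 32 and 17 in Oma1_WT. The brightest, which names Mup16 and Mup6 among others, read 233 in Oma1_KO and 93 in Oma1_WT, a difference of 1.32. It alone was not dim in Oma1_WT, so the folds of the others are less certain. They were singled out because their signal lies outside the single-symbol probe sets and above the level of the control array. The single-symbol probe sets of Mup5 and Mup21 differed by 0.40 and 0.06, both dim. Whether the 7 read transcripts of Mup3 or of each other was not tested, so they are not counted as independent of it.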

How the results depend on the processing

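No paired analysis was possible because each genotype has 1 array, and no array could be left out for the same reason. Medians of the members, of both classes and of their gap kept their sign and moved by less than 0.17, the SD between probe sets, under all 7 alternatives. The 16 members at least 1.5-fold higher became between 11 and 17, and the gap between secreted and intracellular medians lay between 0.23 and 0.32. The intracellular count of 4 became 1 with the filter on the Oma1_WT array, which leaves 29 members. The 229 genes at least 1.5-fold higher among all genes became 116 with that filter, 143 with the filter on the mean of both arrays and 149 with a pseudocount of 16, as fewer genes or smaller folds enter by construction. Median centring changed nothing, since both medians are 83. Among single members, Uox was at 0.75 with a pseudocount of 16 and Bhmt read 0.79 with its brightest probe set; none that was past 1.5-fold changed sign. Dim genes are limited by rounding and by background, which was not measured.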
